A study of Mus musculus with 9 samples.

Results

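Parm1, Magee2, Grtp1, Rasl11a, Cpd and Cited4 are 6 genes outside the globins whose RNA was lower in dexamethasone-treated than in untreated early erythroid progenitors. They were chosen by name, from among the genes with the largest decreases under dexamethasone, out of 19840 gene names in the data. All 6 were found, each as a single transcript record. Since the dexamethasone comparison chose them, their values in that comparison are given as a description with no test, and the tests below concern the other conditions.

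The study profiled RNA of C57BL/6 mouse fetal liver cells taken between embryonic days 13.5 and 14.5. Fresh cells gave 3 libraries, from early progenitors that form bursts of erythroid colonies (BFU-E), later progenitors that form single colonies (CFU-E) and Ter119+ erythroblasts, which carry Ter119 and lack Kit. BFU-E and CFU-E were sorted from Kit-positive cells without Ter119, CD34, CD41, CD16/32, B220, Mac-1, CD3 or Gr-1, as the 10% with the least and the 20% with the most CD71 (the transferrin receptor). For the 6 cultured libraries BFU-E were sorted either by low CD71 alone (CD71 sort) or by low CD71 together with low CD24a (CD71/CD24a sort). After sorting, they spent 4 h in a medium free of serum, with stem cell factor, IGF-1 and erythropoietin, and a further 4 h with the agents. The CD71 sort was divided between water and 100 nM dexamethasone (Dex, a synthetic glucocorticoid). The CD71/CD24a sort was divided between water, Dex, DMOG (dimethyloxalylglycine) at 333 µM, which blocks the prolyl hydroxylases and so stabilises HIF alpha subunits, and both agents. There was 1 library per condition. The labels do not say how many embryos were pooled or that the sorts were repeated, so each p-value measures only the spread between these libraries.

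Dex acts through the glucocorticoid receptor, a transcription factor that moves to the nucleus when it binds its ligand. The bound receptor raises some genes from palindromic DNA elements and lowers others, by recruiting corepressors or by meeting other factors on DNA. In BFU-E, glucocorticoids are known to favour self-renewal over progress to CFU-E. The 6 genes encode proteins of unrelated kinds. Parm1 is a mucin-like membrane glycoprotein, and Cpd, carboxypeptidase D, is a membrane-bound enzyme of the trans-Golgi network that trims basic residues from the C-terminal end of proteins. Grtp1 carries the TBC domain found in proteins that switch off Rab GTPases, and Rasl11a is a small GTPase of the RAS superfamily. Magee2 belongs to the MAGE family, many of whose members bind E3 ubiquitin ligases, and Cited4 is a co-activator that binds CBP and p300 and has no DNA-binding domain of its own.

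The promoters of the 6 genes were read from RefSeq (GRCm38.p6), in which all 6 matched, as the 250 bases before and the 50 bases after the start of transcription. The upstream 250 bases are shown for the pair of genes with the largest mean log2 difference under Dex, Parm1 and Magee2, and for Rasl11a, which held the only motif match. They lie at chr5:91517450-91517699 on the plus strand for Parm1, at chrX:104857268-104857517 on the minus strand for Magee2 and at chr5:146844821-146845070 on the plus strand for Rasl11a. Each is written from 5′ to 3′ and ends at the base before the start, and capitals mark the motif match.

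Parm1: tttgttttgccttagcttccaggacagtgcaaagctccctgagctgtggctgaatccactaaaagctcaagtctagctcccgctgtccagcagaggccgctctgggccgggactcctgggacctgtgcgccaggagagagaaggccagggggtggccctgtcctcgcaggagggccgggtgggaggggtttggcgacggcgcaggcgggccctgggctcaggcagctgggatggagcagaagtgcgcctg

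Magee2: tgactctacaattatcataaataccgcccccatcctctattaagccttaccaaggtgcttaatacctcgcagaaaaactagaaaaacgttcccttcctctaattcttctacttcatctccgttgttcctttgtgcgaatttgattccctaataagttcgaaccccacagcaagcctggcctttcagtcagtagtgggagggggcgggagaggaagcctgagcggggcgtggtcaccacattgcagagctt

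Rasl11a: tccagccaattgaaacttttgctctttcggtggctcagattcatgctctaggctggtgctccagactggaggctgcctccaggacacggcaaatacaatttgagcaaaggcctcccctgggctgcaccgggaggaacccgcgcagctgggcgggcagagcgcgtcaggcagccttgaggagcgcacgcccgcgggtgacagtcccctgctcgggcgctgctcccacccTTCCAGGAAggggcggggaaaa

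The capitals in Rasl11a spell TTCCAGGAA, a match to the STAT motif TTCNNNGAA that begins 22 bases before the start. This motif was in 8.30% of all 32851 promoters of the same length and in 6.70% of the 9687 promoters of genes tested in the cultures. Both shares are given in that order for the other motifs. None of the 6 promoters held the full glucocorticoid response element, AGAACA and TGTTCT with 3 free bases between them (0.00913% and 0%), its single arm AGAACA (19.0% and 11.7%) or the negative element, CTCC and GGAGA with 1 free base between them (0.737% and 0.764%). None held the GATA motif AGATAA (11.2% and 6.22%), the HIF core ACGTG (19.6% and 27.2%) or the AP-1 motif TGACTCA (5.20% and 3.22%). All motifs were searched on both strands, and every full glucocorticoid response element also contains its single arm. These counts say only which letters are in this window. The promoters differed in base composition, from 49.7% G and C with 12 CpG in Magee2 to 67% with 26 CpG in Grtp1. Parm1 had 66% G and C and 16 CpG, Rasl11a 63.7% and 19, Cpd 59.7% and 20, and Cited4 58% and 13. The median over the promoters of the genes tested in the cultures was 61% G and C and 21 CpG.

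Levels are given as normalised RPKM, which is a read count scaled to transcript length (per kilobase) and to depth (per M, or mega, reads), then divided by 1 factor per library. The sequencing depth recovered from the steps between low values was 11.9 to 52.8 M reads, and the 6 genes had from 0 to 14584 recovered reads in a library. Ratios between 2 libraries are given with exact (Clopper-Pearson) 95% intervals from these reads, which cover counting error only. The scaling factor of the Ter119+ library was 0.419, against 1.02 to 1.18 in the other libraries, and globin transcripts made up 39.1% of its summed RPKM. All 7 erythroid progenitor markers checked, among them Kit and Gata1, were at 1 or more normalised RPKM in the BFU-E, CFU-E and cultured libraries. The summed level of 12 neutrophil and mast cell markers was 100.4 in fresh BFU-E, 4.87 in CFU-E and 204.7 in Ter119+ cells, and 9 macrophage markers summed to 7.0, 1.54 and 40.6. In the same order 8 megakaryocyte markers summed to 93.9, 19.0 and 94.4, 7 hepatocyte markers to 29.7, 10.4 and 23.5, and 6 lymphoid markers to 9.38, 0.756 and 10.4. In the cultures, the neutrophil and mast cell sum was 26.7 to 27.1 in the CD71 sort and 5.50 to 6.56 in the CD71/CD24a sort, and the macrophage sum was 0.808 to 2.39. In these bulk libraries, fewer cells of a type and less RNA per cell cannot be told apart.

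Across the 3 Dex pairs, every one of the 6 genes was lower in the Dex library than in its partner. The mean difference ran from 0.95 (Cited4) to 1.37 (Parm1) log2 units below the partner, and the median over the 6 genes was -1.20, against -0.02 over the 9535 genes tested. Over those genes the share called lower under Dex, at a limma adjusted p under 0.05, was 0.629% and the share called higher 1.39%, and nothing is read from the 6 of 6 beside it, since they were chosen from this comparison.

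Parm1 stood at 26.0 normalised RPKM with water and 9.62 with Dex in the CD71 sort, 21.4 and 7.03 in the CD71/CD24a sort, and 27.6 and 10.6 when both arms held DMOG. The level was 2.70-fold lower with Dex in the first pair (interval 2.46 to 2.96), 3.04-fold in the second (2.80 to 3.30) and 2.60-fold with DMOG (2.50 to 2.71). The 3 libraries without Dex were all above the 3 with it, and the mean log2 difference was -1.37 ± 0.092 (SD, n = 3 pairs). Of the 6 genes, Parm1 had the smallest spread between pairs.

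Cpd was the most abundant of the 6 per length in the CD71/CD24a cultures, at 36.7 normalised RPKM with water, 18.9 with Dex, 38.7 with DMOG and 18.7 with both. In the CD71 sort it stood at 47.8 with water and 20.4 with Dex. The fold decrease was 2.34 (2.22 to 2.46) in the CD71 sort, 1.94 (1.86 to 2.02) in the CD71/CD24a sort and 2.06 (2.01 to 2.12) with DMOG. Its intervals are the narrowest of the 6, on 2190 to 14584 reads a library, and the libraries with and without Dex did not overlap.

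Grtp1 stood at 16.6 and 5.52 normalised RPKM with water and Dex in the CD71 sort, 12.6 and 4.65 in the CD71/CD24a sort, and 11.1 and 4.23 with DMOG. These were decreases of 3.0-fold (2.57 to 3.52), 2.70-fold (2.37 to 3.09) and 2.63-fold (2.41 to 2.87). All libraries with Dex were below all without it, and the mean log2 difference was -1.30 ± 0.113 (SD, n = 3 pairs). The exons of Grtp1 overlap those of Lamp1, a lysosomal membrane protein gene on the opposite strand, by 249 bases in GRCm38, and the use of strand in counting was not given. Reads from that stretch cannot be told apart. Lamp1 stood at 121 and 111 normalised RPKM with water and Dex in the CD71 sort, 92.3 and 79.0 in the CD71/CD24a sort, and 94.2 and 79.6 with DMOG, a log2 difference of -0.20 with a limma adjusted p of 0.231. No exon of the other 5 genes overlapped another gene.

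Magee2 was scarce with Dex, at 0.287, 0.252 and 0.280 normalised RPKM in the CD71 sort, the CD71/CD24a sort and the DMOG pair. Without Dex it stood at 2.63, 2.31 and 1.81. The Dex values rest on 9, 13 and 40 reads against 74, 116 and 199 without it, which gives decreases of 9.16-fold (4.57 to 20.8), 9.18-fold (5.15 to 17.7) and 6.46-fold (4.56 to 9.27). This was the largest fold of the 6 in each pair, while its log2 difference of -1.34 ± 0.187 (SD, n = 3 pairs) on the scale of log2(normalised RPKM + 1) was close to that of Parm1, because that scale shrinks the change of scarce genes. Magee2 passed the filter of a mean of 1 normalised RPKM over the cultures only through the libraries without Dex.

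Rasl11a was the other scarce gene, at 3.28 and 0.721 normalised RPKM with water and Dex in the CD71 sort, 2.66 and 1.04 in the CD71/CD24a sort, and 4.19 and 1.41 with DMOG. The 3 decreases were 4.56-fold (2.32 to 9.77), 2.57-fold (1.61 to 4.22) and 2.97-fold (2.32 to 3.78), and their intervals overlap. Its libraries with Dex were all below those without, and its SD between pairs, 0.234 log2 units around a mean of -1.09, was the largest of the 6.

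Cited4 differed from the other 5 in that the 3 libraries with Dex overlapped the 3 without. It stood at 86.4 and 51.0 normalised RPKM with water and Dex in the CD71 sort, but at 24.4 and 11.9 in the CD71/CD24a sort and 22.8 and 10.0 with DMOG. The Dex library of the CD71 sort was thus above both CD71/CD24a libraries without Dex, while within each sort the values with Dex were below those without. The decreases were 1.69-fold (1.55 to 1.85), 2.05-fold (1.79 to 2.35) and 2.28-fold (2.09 to 2.50), the smallest of the 6 in the CD71 sort. The share of all genes whose libraries with and without Dex did not overlap was not computed. Nothing is read from the lack of overlap in the other 5, since these values chose the genes.

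**Figure D1:**
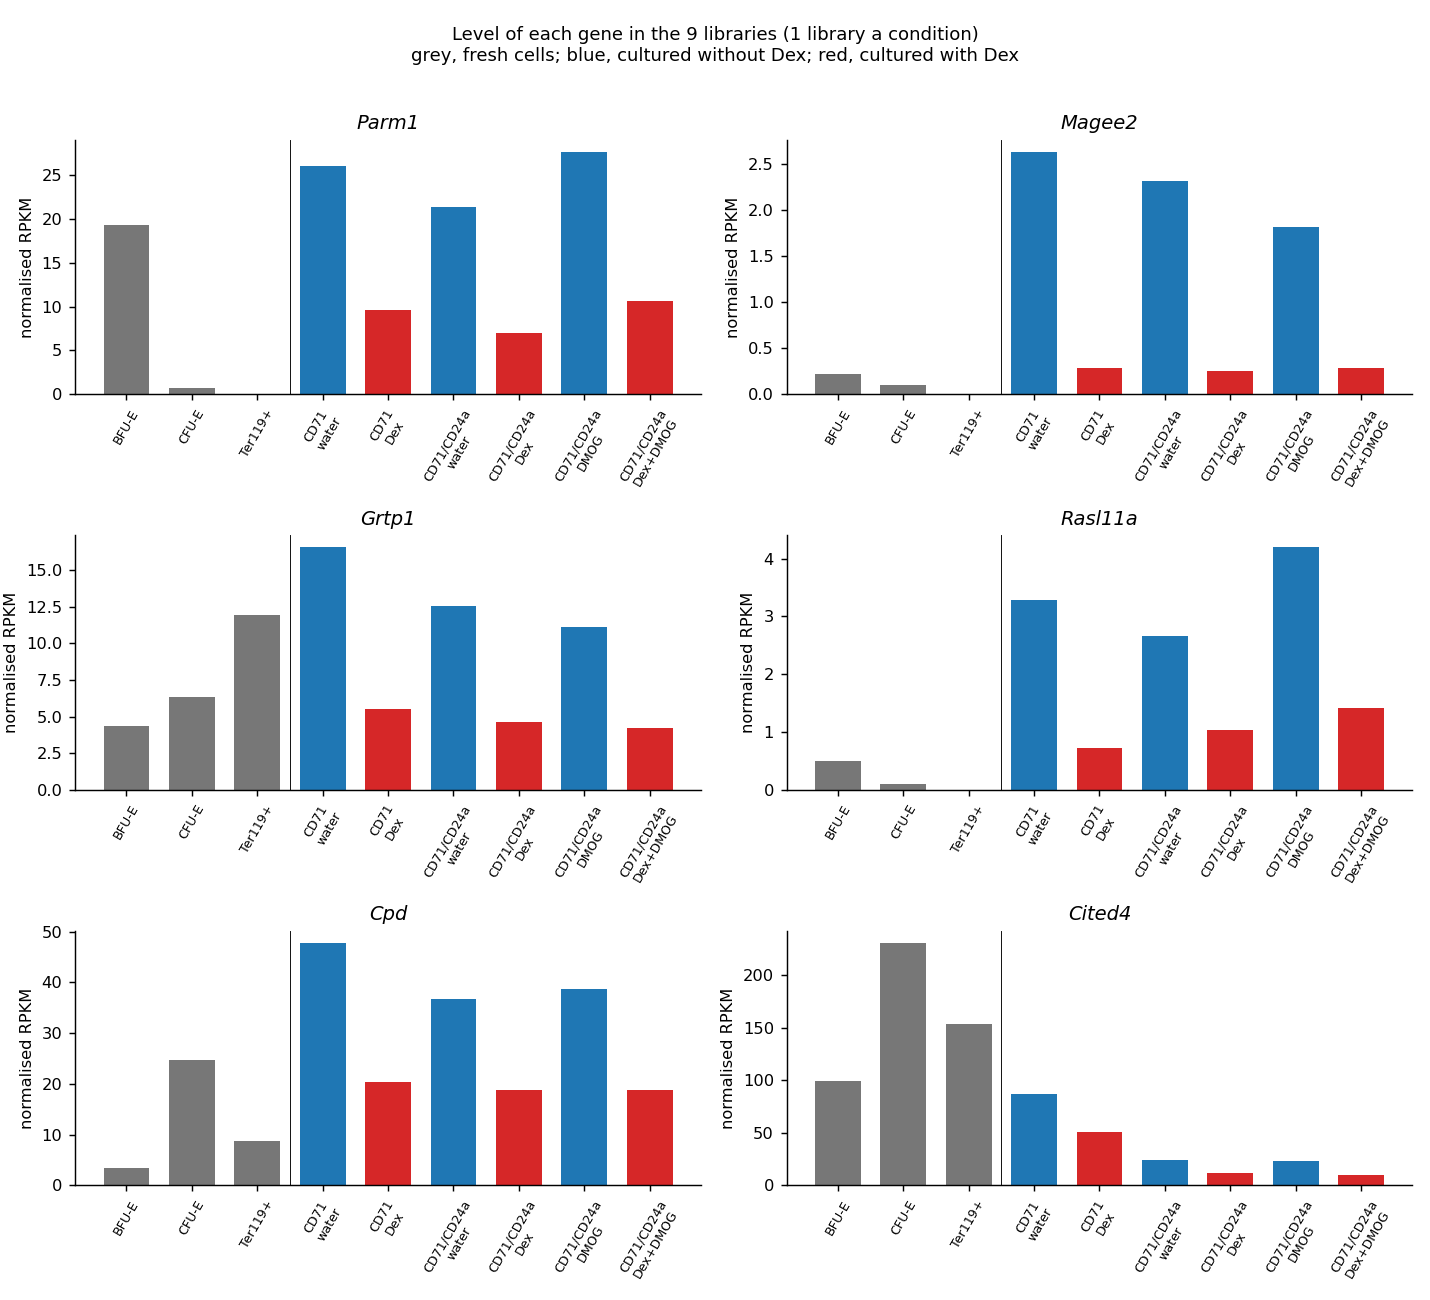
Level of each of the 6 genes in normalised RPKM (y axis from 0, with its own range in each panel) in the 9 libraries, 1 bar per library, with fresh cells in grey, cultures without Dex in blue and cultures with Dex in red. Red bars are below the blue bars to their left in all 3 pairs of each gene, and Cited4 is at 86.4 and 51.0 in the CD71 sort but at 10.0 to 24.4 in the CD71/CD24a sort. There are no error bars because each condition has 1 library.

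Erythroblast genes moved in the same libraries. The summed level of 6 erythroblast markers was 1123 with water and 485 with Dex in the CD71 sort, 142 and 63.4 in the CD71/CD24a sort, and 188 and 51.8 with DMOG. Most of this sum was globin, and Hbb-bt stood at 822 and 371, 119 and 43.8, and 170 and 37.5 in the same pairs. By contrast, Alas2, the erythroid heme synthesis enzyme, stood at 5.57 and 7.67, 6.11 and 4.61, and 4.99 and 4.41, and Slc4a1, the erythrocyte anion exchanger, at 3.12 and 2.25, 1.06 and 1.37, and 1.15 and 0.906. The part of erythroblast content in the lower levels of the 6 genes was not tested.

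Among the genes called lower under Dex, the 6 ranked 3rd to 12th by mean log2 difference. The globin genes Hbb-b2 and Hbb-bt stood above them at -1.58 and -1.57. Between Grtp1 and Cpd lay Csf2rb2, a cytokine receptor subunit, at -1.18, the cytokine gene Osm at -1.11, the matrix glycoprotein gene Thbs1 at -1.10 and 1 transcript record without a matched symbol at -1.08. Just past Cited4 (-0.95) came Nol4l at -0.91, Csf2rb at -0.87 and Tgm1, a transglutaminase, at -0.85. Csf2rb2 shares 29.9% of its 32-base words with other genes, Csf2rb 29.4% and Hbb-bt 59.4%, so their reads could be split by the counting. The 6 genes shared from 0 to 0.659%.

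**Figure D2:**
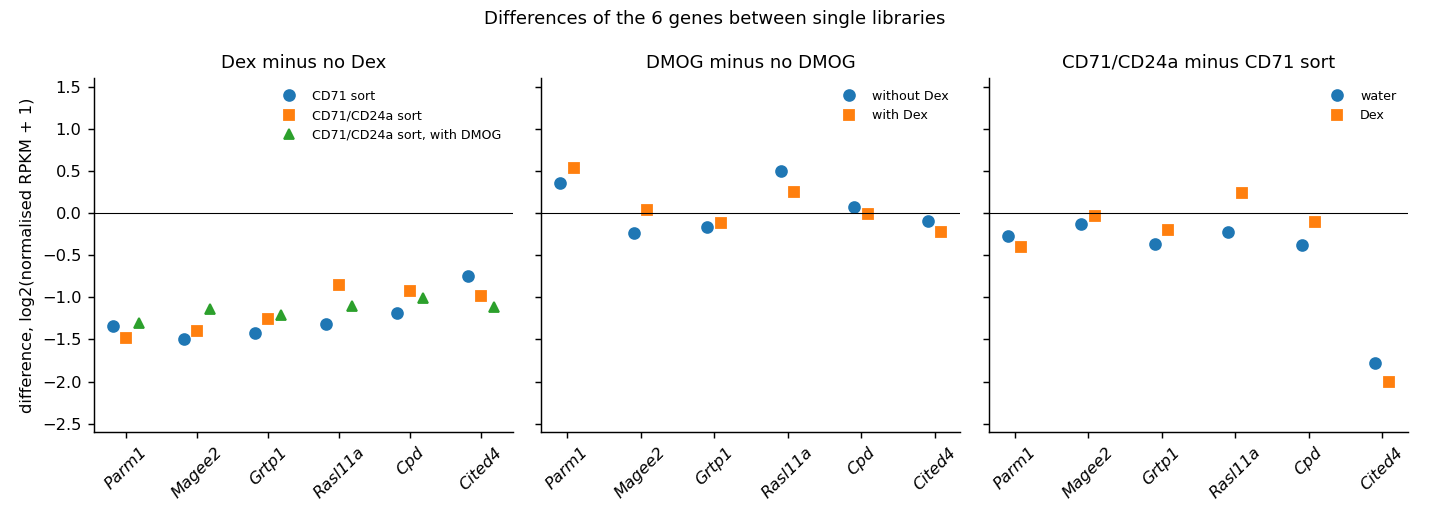
Difference in log2(normalised RPKM + 1) between single libraries for each of the 6 genes, with the 3 Dex pairs on the left, the 2 DMOG pairs in the middle and the 2 comparisons of sorts on the right. All Dex points lie between -1.49 and -0.75, whereas the DMOG points lie between -0.24 and 0.53 and the sort points of Cited4 at -1.78 and -2.01.

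Parm1 was 1.29 to 1.51 times and Rasl11a 1.37 to 1.57 times as high with DMOG as without it, while the other 4 genes had ratios between 0.784 and 1.11. At a limma adjusted p under 0.05, 0 of the 6 were called in either direction, against 0.0210% of the 9535 genes called higher and 0.00% called lower. At an unadjusted p under 0.05, 2 of the 6 and 347 of all genes (3.64%) passed. The residual spread in this fit comes from the same libraries that chose the 6 genes, so their SE and p-values may be too small.

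Parm1 was higher with DMOG in both arms, 27.6 against 21.4 normalised RPKM without Dex and 10.6 against 7.03 with Dex. These are ratios of 1.29 (1.23 to 1.35) and 1.51 (1.40 to 1.63). The log2 difference was 0.44 ± 0.090 (SE, 95% interval 0.22 to 0.66), with an unadjusted p of 0.00237 and a limma adjusted p of 0.551. The adjusted p was 0.00872 when the CD71 sort pair, which holds no DMOG, was left out of the fit, so the call depends on whether those libraries enter the estimate of the spread.

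Rasl11a stood at 4.19 with DMOG against 2.66 with water, and at 1.41 against 1.04 in the arms with Dex. The ratio was 1.57 (1.19 to 2.10) without Dex and 1.37 (0.878 to 2.19) with it, and the log2 difference of 0.37 (0.03 to 0.72) had an unadjusted p of 0.0364 and a limma adjusted p of 0.999. The intervals of the log2 difference for the other 4 genes all held 0. They were -0.43 to 0.23 for Magee2, -0.38 to 0.10 for Grtp1, -0.20 to 0.26 for Cpd and -0.42 to 0.10 for Cited4.

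The test called 2 genes under DMOG. Ankrd37, a HIF target, rose by 3.16 ± 0.17 (SE) log2 units with a limma adjusted p of 0.0103, and Narf rose by 1.29 ± 0.089 with an adjusted p of 0.0213. Of 12 listed HIF targets, 11 were tested, 1 rose (Ankrd37), none fell, and their median difference was 0.67. None of the 6 genes was among those listed. The Dex difference was -1.30 with DMOG and -1.48 without it for Parm1 in the CD71/CD24a sort, -1.14 and -1.40 for Magee2, -1.21 and -1.26 for Grtp1, -1.11 and -0.85 for Rasl11a, -1.01 and -0.92 for Cpd, and -1.12 and -0.98 for Cited4. The difference was smaller with DMOG for 3 genes and larger for the other 3, and it was not tested because the pairs were used in choosing the genes.

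**Figure D3:**
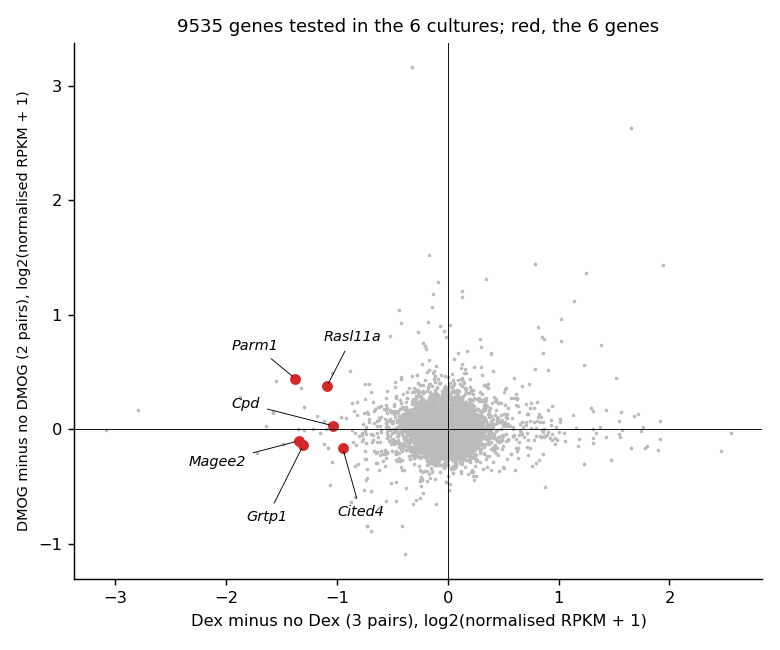
Mean log2 difference under Dex (x axis, 3 pairs) against that under DMOG (y axis, 2 pairs) for the 9535 genes tested in the cultures, in grey, with the 6 genes in red. The 6 lie between -0.95 and -1.37 on the Dex axis and between -0.16 and 0.44 on the DMOG axis. Grey points further left did not all pass the Dex test.

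The CD71/CD24a sort was compared with the CD71 sort over water and Dex. Of the 6 genes, 3 fell and 0 rose, against 25.0% of all genes lower and 29.1% higher, 54.2% in all. The gate cannot be told apart from anything else that differed between the 2 sorts. The arms of a sort were split from the same cells, so water and Dex are not repeats of a sort. As under DMOG, the residual spread comes from the libraries that chose the 6 genes, so their SE and p-values may be too small. The neutrophil and mast cell sum and the erythroblast sum were also lower in the CD71/CD24a sort, at the levels given above. The hepatocyte sum was higher, at 10.8 to 13.7 against 3.45 to 5.29. The sum of 6 endothelial markers was lower, at 9.68 to 10.6 against 13.5 to 21.3. Of these markers 3 were tested, and they differed in direction. Eng was lower, with a log2 difference of -1.51 and a limma adjusted p of 0.00198. Pecam1 (3.33 to 4.04 against 2.04 to 2.13) and Tek (1.37 to 1.87 against 0.571 to 0.671) were higher. The part of these cell types in the sort differences of the 6 genes was not tested.

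Cited4 showed the largest sort difference of the 6, with 24.4 against 86.4 normalised RPKM in water and 11.9 against 51.0 in Dex. It was 3.54-fold lower (3.22 to 3.89) in water and 4.29-fold lower (3.77 to 4.88) in Dex, and the log2 difference was -1.90 ± 0.11 (SE) with a limma adjusted p of 0.00102. This difference was larger than the Dex difference of the same gene.

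Parm1 and Grtp1 fell by smaller amounts. Parm1 changed from 26.0 to 21.4 in water and from 9.62 to 7.03 in Dex, a log2 difference of -0.34 ± 0.090 (SE, limma adjusted p = 0.0213). Grtp1 changed from 16.6 to 12.6 and from 5.52 to 4.65, a log2 difference of -0.29 ± 0.099 (SE, limma adjusted p = 0.0472). The call for Parm1 was lost without the Dex or the water library of the CD71/CD24a sort (adjusted p = 0.286 and 0.0970), without scaling factors (0.157) and without the pairing (-0.12, adjusted p = 0.543). That for Grtp1 was kept only without the CD71 sort Dex library among the fits with a library or pair left out, and ended with an adjusted p of 0.0629 to 0.300 in the others, 0.269 without scaling factors and 0.0953 with no filter on low values. Cpd had a difference of -0.24 with an adjusted p of 0.0747 (0.00682 without the CD71 sort Dex library), Magee2 -0.09 with 0.619 and Rasl11a 0.01 with 0.966, and these did not pass.

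Along the fresh stages the 6 genes followed different courses. Each stage was 1 library, so a size rule was used in place of a test, which called a gene when log2(normalised RPKM + 1) differed by 1 (2-fold) or more, among genes at 1 or more in at least 1 of both libraries.

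Parm1 was at 19.3 normalised RPKM in BFU-E, 0.741 in CFU-E and 0.0653 in Ter119+ cells. The first step was a 26.0-fold decrease (21.2 to 32.2), and the Ter119+ value rests on 2 reads, 11.3 times below CFU-E with an interval from 3.71 to 115. The gene thus had its only sizeable fresh level in the earliest stage. The sum of 6 endothelial markers also went down along the stages, at 41.8, 23.4 and 3.44. Eng made up most of it in BFU-E and CFU-E, at 29.7, 23.1 and 1.55. Pecam1 was at 6.88, 0.178 and 0.168 and Tek at 3.95, 0.017 and 0. The remaining, scarce markers were higher in Ter119+ cells than in CFU-E. Cdh5 was at 0.640, 0.077 and 0.854, Kdr at 0.431, 0.028 and 0.600, and Stab2 at 0.176, 0.081 and 0.268. The sums of the other 5 non-erythroid lists were lower in CFU-E than in BFU-E and higher again in Ter119+ cells on the normalised scale. All Ter119+ sums rest on the scaling factor of that library, 0.419, and were not computed without it. The part of other cell types in the course of Parm1 was not tested.

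Cpd followed another course, at 3.50 in BFU-E, 24.7 in CFU-E and 8.76 in Ter119+ cells. It was 7.05-fold higher in CFU-E than in BFU-E (6.44 to 7.71) and 2.82-fold lower in Ter119+ cells than in CFU-E (2.57 to 3.09). Cited4 had the same peak in CFU-E at a much higher level, 99.4, 230.4 and 153.5, with a 2.32-fold difference (2.21 to 2.43) between the progenitors. Cited4 was the most abundant of the 6 in all fresh stages. The step from CFU-E to Ter119+ cells was larger without the scaling factors, with log2 differences of -2.57 in place of -1.40 for Cpd and -1.94 in place of -0.58 for Cited4.

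Grtp1 was at 4.36 in BFU-E, 6.34 in CFU-E and 11.9 in Ter119+ cells, a 1.45-fold (1.25 to 1.69) and then a 1.89-fold (1.62 to 2.19) increase. The direction of the second step depends on the scaling of the Ter119+ library, since without the scaling factors the log2 difference was -0.39 in place of 0.82. The part of other cells in the Ter119+ library was not tested. Its neutrophil and macrophage sums were the highest of all 9 on the normalised scale, after division by its factor of 0.419.

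Magee2 and Rasl11a were scarce in every fresh stage. Magee2 was at 0.220, 0.10 and 0 on 10, 6 and 0 reads, and Rasl11a at 0.499, 0.103 and 0 on 11, 3 and 0 reads. For Rasl11a the level in CFU-E was 4.85-fold lower than in BFU-E, with an interval of 1.28 to 27.0. In the Ter119+ library, 3 reads would be worth 0.177 normalised RPKM for Magee2 and 0.364 for Rasl11a. The ratio to BFU-E could be up to 1.19 for Magee2 and 1.06 for Rasl11a by its exact interval, so a difference between these stages was not detectable at this depth.

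Between BFU-E and CFU-E, 4 of the 6 could be judged by the size rule, with 1 lower (Parm1, 12.3% of all genes judged) and 2 higher (Cpd and Cited4, 3.32% of all). Between CFU-E and Ter119+ cells, 3 could be judged, with 1 lower (Cpd, 28.8%) and 0 higher (22.6%). Between BFU-E and Ter119+ cells, 4 could be judged, with 1 lower (Parm1, 35.8%) and 2 higher (Grtp1 and Cpd, 21.2%). The 2 higher calls depended on the scaling of the Ter119+ library. Without the factors Grtp1 stood at 0.10 log2 units in place of 1.27 and Cpd at -0.01 in place of 1.12. Cited4, which was not called, stood at -0.70 in place of 0.62. Parm1 could be judged only through its BFU-E level, so it could be called lower but not higher.

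Culture was compared through the water libraries, which also served as the controls of the Dex pairs that chose the genes. The comparison is therefore not independent of that choice and is given as a description. Against fresh BFU-E, 4 of the 6 were at least 2-fold higher in the CD71 sort with water (Magee2, Grtp1, Rasl11a and Cpd), where 6.27% of all genes were higher and 9.06% lower, and 0 of the 6 were lower. In the CD71/CD24a sort with water the same 4 were higher (11.2% of all genes) and Cited4 was lower (12.9%). Magee2 and Rasl11a, at 0.220 and 0.499 normalised RPKM in fresh BFU-E, could be judged by the size rule only through the water libraries. They could therefore be called higher but not lower. The CD71 sort shares the gate of fresh BFU-E, and the CD71/CD24a sort does not.

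Cpd stood at 3.50 normalised RPKM fresh and at 47.8 and 36.7 in the water cultures, 13.6-fold (12.5 to 14.9) and 10.5-fold (9.58 to 11.4) higher. With Dex it was still 5.83-fold (5.31 to 6.42) and 5.39-fold (4.92 to 5.91) above fresh BFU-E. Among the 6, Cpd alone had Dex libraries whose intervals lay wholly above 2-fold of the fresh level in both sorts.

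Magee2 was 11.9-fold (6.14 to 25.9) and 10.5-fold (5.50 to 22.4) higher with water than fresh, from a fresh level of 10 reads. Its Dex libraries stood at 1.30 (0.469 to 3.57) and 1.14 (0.464 to 2.92) times the fresh level, and both intervals hold 1. Grtp1 was 3.79-fold (3.27 to 4.40) and 2.88-fold (2.50 to 3.33) higher with water, and 1.26-fold (1.05 to 1.52) and 1.07-fold (0.900 to 1.26) higher with Dex. The Dex libraries of both genes thus lay nearer to fresh BFU-E than the water libraries did, as was also so for Cpd and Rasl11a. Choosing genes lower with Dex favours this where the water level is above the fresh one.

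Rasl11a was 6.59-fold (3.36 to 14.1) and 5.34-fold (2.80 to 11.2) higher with water than fresh. With Dex it stood at 1.45 (0.570 to 3.68) and 2.08 (0.994 to 4.67) times the fresh level, on 11 fresh reads. Parm1 differed, since water cultures were only 1.35-fold (1.26 to 1.44) and 1.11-fold (1.04 to 1.18) above fresh BFU-E and Dex cultures were 2.00-fold (1.83 to 2.19) and 2.74-fold (2.52 to 2.98) below it. Cited4 was below its fresh level in all cultures, by 1.15-fold (1.08 to 1.23) and 4.07-fold (3.73 to 4.44) with water and by 1.95-fold (1.80 to 2.11) and 8.35-fold (7.44 to 9.39) with Dex.

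**Figure D4:**
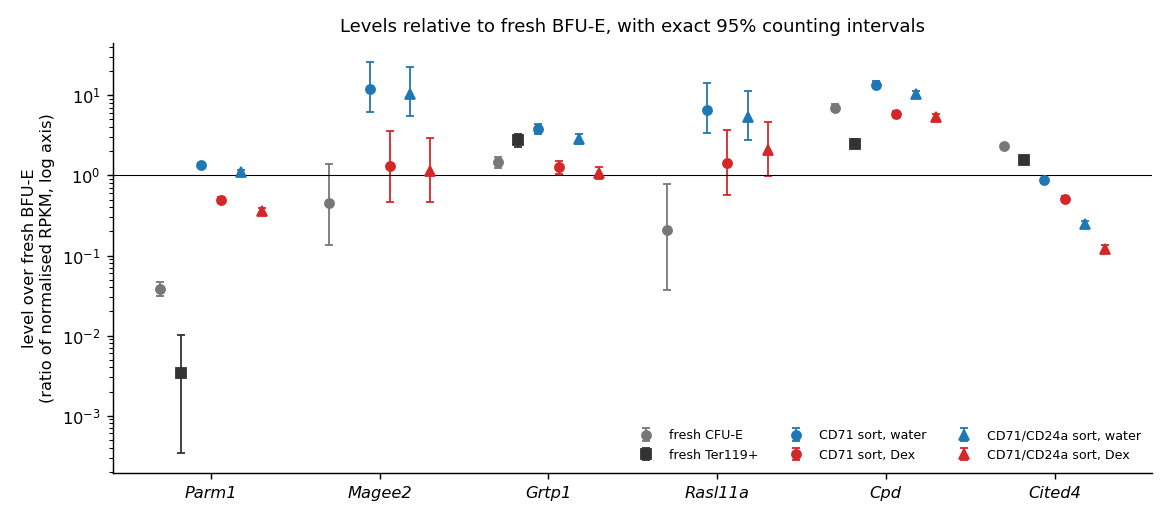
Ratio of the level of each of the 6 genes to fresh BFU-E (log axis) in fresh CFU-E and Ter119+ cells and in the water and Dex cultures of both sorts, with exact 95% intervals from recovered reads as bars (counting error only). For Magee2 and Grtp1 the water points lie at 2.88 to 11.9 and the Dex points at 1.07 to 1.30, whereas Parm1 and Cited4 with Dex lie below 1. Magee2 and Rasl11a have no Ter119+ point because they had 0 reads there.

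Relatives of the 6 genes were read beside the share of all genes called lower under Dex, 0.629%, at which lists this short would hold few calls or none. The lists include the 6 genes, whose own calls under Dex follow from how they were chosen and are not read. Of the CITED family, Cited2 rose under Dex by 0.53 ± 0.068 (SE) log2 units with a limma adjusted p of 0.0173, the opposite sign to Cited4. Cited2 stood at 23.4 and 35.4 normalised RPKM with water and Dex in the CD71 sort, 15.2 and 21.5 in the CD71/CD24a sort, and 15.9 and 23.8 with DMOG, and Cited1 was too scarce to test. The co-activators and partners that CITED proteins bind showed no call, with 4 of 8 tested and log2 differences of -0.01 for Ep300, 0.03 for Crebbp, -0.09 for Hif1a and 0.02 for Arnt.

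Among TBC domain Rab GTPase-activating proteins, 28 of 30 were tested, no relative of Grtp1 was called under Dex, and the list's median was -0.01. Of 9 mucin-like surface glycoproteins 7 were tested and no relative of Parm1 was called. Spn (CD43) had a difference of -0.34 with an adjusted p of 0.0734 and Podxl -0.33 with 0.0883. From BFU-E to CFU-E, 4 of those 7 met the 2-fold rule downward (12.3% of all genes judged) and 1 upward (3.32%).

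Of 9 type II MAGE genes 5 were tested and no relative of Magee2 was called, with Maged1 at -0.22 (adjusted p = 0.331). The CPE and CPD type carboxypeptidases had 2 of 8 genes tested, Cpd and Aebp1, whose difference was -0.15 with an adjusted p of 0.506. Of 7 RAS-like genes of the RERG and RASL branch only Rasl11a had enough RNA to test, so no relative of it was compared.

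The glucocorticoid receptor gene Nr3c1 and 13 corepressor genes were all tested, and 0 of the 14 were called under Dex. Nr3c1 had a difference of 0.20 with a limma adjusted p of 0.283. Of 12 listed glucocorticoid-induced genes 11 were tested, 9 rose and 0 fell, with a median of 1.18. This list was written with results of these data known.

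Over all 9 libraries, each gene's profile was compared with those of other genes as the root mean square difference of centred log2 values. Magee2 and Rasl11a were the most alike of the 6, at 0.33, and Parm1 and Cited4 the least, at 2.71. The measure depends on the size of changes, which log2(normalised RPKM + 1) shrinks in scarce genes such as Magee2 and Rasl11a. The nearest genes to Parm1 were Ass1 (0.47), the arginine synthesis enzyme argininosuccinate synthase, and Mef2c (0.55), a MADS-box transcription factor. Rasl11a lay nearest Ikzf4 (0.31), an Ikaros family zinc finger factor, and Gadd45b (0.32), a stress-response gene.

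Cpd lay nearest St3gal6 (0.42), a sialyltransferase, and Chchd2 (0.54), a mitochondrial protein gene. Cited4 lay nearest Zfpm1 (0.56), which encodes the GATA1 partner FOG1, and C1qtnf12 (0.62). For Magee2 they were Ppia (0.30), the cyclophilin A gene, and Rasl11a, and for Grtp1 the ribosomal protein gene Rpl23a (0.35) and 1 transcript record without a symbol (0.38). The Ass1, Ppia, Rpl23a and Chchd2 values are uncertain, since 61.2%, 42.7%, 83.2% and 53.5% of their 32-base words also occur in other genes or pseudogenes. The profiles include the Dex libraries that chose the 6 genes.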

How the data were processed

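RNA was measured by paired-end mRNA sequencing in 3 fresh and 6 cultured libraries. The deposited values are RPKM computed by the authors for 23041 RefSeq transcript records with mm9 as the genome build, per the submitters' processing notes. How reads were aligned and counted, and whether strand was used, are not given in the sources used here. In the 4 CD71/CD24a files an exact 1 (5954 to 7412 values a file) was read as 0, since those files hold no 0. Symbols came from RefSeq and GENCODE tables of GRCm38 for 22397 and 114 records, and 530 had none. Of several records with 1 name, the one with the highest mean stood for it.

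Each library was divided by the median ratio to the geometric mean over 6888 genes that reached 1 RPKM in every one of the 9 libraries. Depth was recovered from steps between low RPKM values, with 66.8 to 69.9% of values up to 10 reads whole within 0.1 reads (20% by chance). Transcript lengths were those of GRCm38, so reads are estimates. Differences are on log2(normalised RPKM + 1). Cultured libraries were fitted with limma 3.58.1 (R 4.3.3, empirical Bayes with trend) on the 9535 genes whose mean over the 6 reached 1, with culture pair and Dex as terms, which left 2 residual degrees of freedom and 4.31 prior ones. Pairs follow the protocol, in which the cells of 1 sort were split between its arms. Adjusted p-values are Benjamini-Hochberg over all genes tested. The fit was tested on simulated data.

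The 6 genes and all gene lists were chosen with earlier results of these data known. Beyond the 6 genes, the text names the genes called lower under Dex at or above Cited4, the next 3 named ones, the 2 nearest profiles of each gene and, from each list, genes past the threshold. Alas2, Slc4a1, Lamp1 and genes given with an adjusted p above 0.05 were named after their values were seen. Alternatives were no scaling factors, a pseudocount of 0.1, no filter, no trend, no pairing, summed records, exact 1 kept, and each library or pair left out.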

Additional observations from a re-analysis of the deposited data

How the results depend on the processing

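The median Dex difference over the 6 genes was -1.20, and was -1.46 with a pseudocount of 0.1. It kept its sign there and with exact 1 kept, no filter, no scaling factors, summed records and each pair left out, the alternatives run for it. With each pair left out it was -1.26 to -1.14. The 6 genes were chosen from these same pairs, so nothing is read from the kept sign. Under DMOG the count called was 0 to 1 of 6 when each library or the CD71 sort pair was left out. It was 1 (Parm1) without the CD71 sort pair, without its Dex or without its water library, and 0 in the other fits. The count over all genes was 2, and it was 139, 116 and 139 in those 3 fits, 10 and 17 without the DMOG or the Dex and DMOG library, 3 without the CD71/CD24a water library, 5 with summed records, 3 without factors and 0 with no filter, no replicate block or a pseudocount of 0.1.

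In the sort comparison 3 of 6 were lower, 1 to 4 with a library or pair left out, 2 with no filter (Grtp1 lost), and 1 without scaling factors. All-gene counts were 2182 and 2678 (5165 with all libraries) without the CD71/CD24a Dex or water library. With no replicate block the count was 3, with Cpd (-0.22, adjusted p = 0.0345) in place of Parm1 (-0.12, adjusted p = 0.543). Cited4 was called in every sort fit.

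Without scaling factors the count of the 6 genes past 2-fold was 2 (1 with them) for Ter119+ over CFU-E and 1 (3 with them) for Ter119+ over BFU-E. Signs turned for Grtp1 over CFU-E (-0.39), and over BFU-E for Cpd (-0.0090) and Cited4 (-0.70). These shifts follow from the factor of the Ter119+ library, 0.419, by which its values were divided. Which of both scales is the better one was not tested. DMOG could not be fitted without either CD71/CD24a pair, nor the sort without the CD71 pair or the CD71/CD24a pair without DMOG. Depth limits Magee2 and Rasl11a, at 0 to 11 reads in the fresh libraries.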
